A study of Mus musculus with 9 samples.

Results

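The fibrous sheath and the outer dense fibers are the cytoskeletal sleeves that surround the axoneme in the sperm tail, and 10 mouse genes for their proteins were followed here in RNA from whole juvenile testes. The genes were chosen by name, as the rows of the expression table whose symbol is Odf1, Odf2, Odf3, Odf4, Akap3, Akap4, Fsip2, Ropn1, Ropn1l or Spa17, which are 10 of the 22337 genes in that table. All 10 had reads in every testis and passed the filter on low counts in every comparison. The study sequenced testes of 3-week-old mice carrying a knock-in of Piwil4, the gene for a PIWI protein that uses piRNAs to silence transposons in male germ cells, with 3 wild-type, 3 heterozygous Piwil4 WT/R264W and 3 homozygous Piwil4 R264W/R264W testes. R264W denotes an arginine replaced by tryptophan, and the allele was introduced into C57BL/6 zygotes with CRISPR-Cas9. The 3 genotypes share age, tissue and library kit, and no agent was given. Gene counts do not tell the alleles apart, so genotypes rest on the labels, and no source says how many founders or litters the testes come from. The p-values below therefore measure the spread between these testes only.

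In the sperm tail, the outer dense fibers run along the outside of the axonemal microtubules through the midpiece and principal piece. The fibrous sheath encloses them in the principal piece as longitudinal columns joined by ribs, and it holds protein kinase A and glycolytic enzymes close to the axoneme. The A-kinase anchoring proteins AKAP4 and AKAP3 form most of the sheath, while ropporin (Ropn1), its relative Ropn1l and Spa17 carry a docking domain of the kind found in the regulatory subunit of protein kinase A and bind such anchors. Assembly of both structures extends into elongating spermatids, and the transcripts for many of their proteins first accumulate in round spermatids. At 3 weeks of age the first wave of spermatogenesis is reaching the round spermatid, so testes of one age can hold very different amounts of these transcripts.

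Sequence upstream of the genes is shown first. Below, the members divided into a group whose RNA rose steeply with a round spermatid score and a group that rose little. RefSeq promoter windows (build GRCm38.p6, 250 bases before the RefSeq start) were held for 9 of the 10 genes, all but Odf1, and are a description only because the expression files carry no coordinates. The windows of Akap3 (chr6:126852848-126853097, plus strand) and Akap4 (chrX:7067265-7067514, plus strand) lie outside annotated exons and share 1 run of 20 bases, set in capitals here. The run begins 34 bases before the Akap3 start and 47 bases before the Akap4 start.
Akap3: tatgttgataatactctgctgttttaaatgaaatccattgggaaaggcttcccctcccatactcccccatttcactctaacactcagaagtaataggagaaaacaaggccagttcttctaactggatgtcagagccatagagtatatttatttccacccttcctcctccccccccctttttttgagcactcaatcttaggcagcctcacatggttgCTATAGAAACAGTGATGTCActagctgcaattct
Akap4: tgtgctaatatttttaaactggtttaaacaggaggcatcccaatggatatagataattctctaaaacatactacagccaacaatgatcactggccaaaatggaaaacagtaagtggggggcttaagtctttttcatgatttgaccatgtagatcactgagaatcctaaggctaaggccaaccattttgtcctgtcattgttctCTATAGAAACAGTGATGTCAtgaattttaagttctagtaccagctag
The run CTATAGAAACAGTGATGTCA was picked by comparing these 2 windows, and of 32851 RefSeq windows searched on both strands (0.00609%) it occurred in 2, the ones it came from. Its last 8 bases, TGATGTCA, are close to the cAMP response element TGACGTCA and were found in 2.93% of all windows. The element itself occurred in 1.55% of windows and in none (0) of those of these genes. TATAAA, in 12.4% of all windows, was also found in none (0) of theirs, and the RFX half-site GTTGCC, in 10.4% of all windows, was found in the windows of Odf3 and Ropn1l, both times inside the GENCODE gene.

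RefSeq and GENCODE starts differ for several of the genes. Of the 14 windows, 4 lie wholly upstream of the GENCODE gene, those of Akap3, Fsip2 and Odf4 and 1 of Akap4. The other 10 overlap the gene or lie inside it, so their sequence is in part or wholly that of the gene. Over all windows the median was 6 CG dinucleotides (quartiles 2 and 16). Upstream of the gene, Akap3 and Akap4 had 0, Odf4 had 2 and Fsip2 had 11. In windows that overlap the gene or lie inside it, Akap4 had 0, Odf3 1, Ropn1 2, Spa17 13 and Ropn1l 18. The 4 windows of Odf2 had between 22 and 35. Fsip2 (chr2:82943384-82943633, plus strand) and Odf4 (chr11:68927082-68927331, minus strand) are shown as windows outside annotated exons with many and with few, the CG dinucleotides in capitals.
Fsip2: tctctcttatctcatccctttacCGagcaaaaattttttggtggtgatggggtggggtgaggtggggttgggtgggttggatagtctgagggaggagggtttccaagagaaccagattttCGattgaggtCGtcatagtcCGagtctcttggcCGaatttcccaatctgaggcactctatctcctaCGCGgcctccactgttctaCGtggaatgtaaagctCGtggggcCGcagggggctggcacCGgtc
Odf4: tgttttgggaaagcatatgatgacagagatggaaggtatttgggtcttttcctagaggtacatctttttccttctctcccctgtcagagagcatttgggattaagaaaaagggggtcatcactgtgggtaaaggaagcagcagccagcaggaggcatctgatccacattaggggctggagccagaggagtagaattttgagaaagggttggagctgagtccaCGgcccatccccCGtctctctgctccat

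The 9 testes differed widely in how much round spermatid RNA they held, and this has to be known before any genotype is compared. A round spermatid score was computed as the mean log2 CPM (counts scaled to library size after TMM normalization) of 15 round spermatid genes, none of which belongs to the 10. It was 6.54, 4.62 and 3.77 in wild-type testes 1 to 3, 5.84, 5.45 and 3.35 in heterozygous testes and 4.68, 5.30 and 6.43 in homozygous testes. The scores spread without a gap that would divide the testes, each genotype covered a wide part of the range, and the labels give no stage, so the score was used as a number for each testis. Total estimated counts were between 17.96 and 24.28 M per testis. Correlations of log2 CPM between testes lay between 0.882 and 0.991, and no libraries were identical (0 pairs). Marker lists for pachytene spermatocytes and Sertoli cells were detected in full in all testes, as a whole testis should give. Of 5 epididymal markers, Lcn8 and Lcn9 were at 0 throughout, while Crisp1 reached 27.7 FPKM, Adam7 2.26 FPKM and Defb20 0.210 FPKM. Their summed level ran from 0 to 4.04 FPKM in wild-type, from 0.210 to 3.08 FPKM in heterozygous and from 0 to 29.9 FPKM in homozygous testes, and its part in the results was not tested.

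Among the outer dense fiber genes, Odf1 and Odf3 were low in the least advanced testes by this score and high in the most advanced. Odf1 (GRCm38 chr15:38219203-38226735, plus strand, 2 exons) encodes a cysteine-rich protein related to small heat shock proteins that is a main building block of the fibers. Its level was 124, 23.8 and 12.3 FPKM (fragments per kilobase of transcript, scaled to library size) in wild-type testes 1 to 3, 70.2, 43.1 and 8.09 FPKM in heterozygous testes and 25.2, 47.0 and 112 FPKM in homozygous testes. The highest testis of each genotype lay far above the lowest, and the genotypes overlapped. Odf3 (chr7:140847805-140851018, plus strand, 6 exons) encodes another tail protein named for the fibers. It stood at 36.3, 3.99 and 1.41 FPKM in wild-type, 23.5, 10.7 and 0.950 FPKM in heterozygous and 3.01, 9.0 and 36.9 FPKM in homozygous testes. Odf3 spanned 38.8-fold between its lowest and highest testis, the widest range of the 10 genes, and at its lowest it rested on 20 counts. Odf1 spanned 15.3-fold.

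The other outer dense fiber genes, Odf2 and Odf4, were abundant in every testis and varied little. Odf2 (chr2:29889221-29931746, plus strand, 21 exons) encodes a fiber protein that in other cells is a component of the appendages of centrioles and cilia. It measured 824, 606 and 544 FPKM in wild-type, 628, 686 and 508 FPKM in heterozygous and 588, 647 and 817 FPKM in homozygous testes. Its range of 1.62-fold over the 9 testes contrasts with that of Odf1 and Odf3 although the genes are named for the same structure. Odf4 (chr11:68921835-68927081, minus strand, 5 exons), also named for the fibers, ranged from 85.2 to 135 FPKM, a span of 1.58-fold. Odf2 and Odf3 each overlap a small annotated transcript on the opposite strand, and no source states whether the counting used strand, so reads of these partners could not be separated.

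The anchoring proteins of the fibrous sheath behaved like Odf1. Akap4 (chrX:7067519-7078609, plus strand, 6 exons), the X-linked gene for the major sheath protein, was at 122, 14.9 and 7.92 FPKM in wild-type, 64.5, 31.9 and 5.42 FPKM in heterozygous and 17.3, 34.2 and 102 FPKM in homozygous testes. Akap3 (chr6:126853098-126874308, plus strand, 6 exons), whose product is the other anchor of the sheath, was at 125, 28.0 and 15.6 FPKM in wild-type, 76.4, 50.5 and 11.9 FPKM in heterozygous and 29.5, 47.9 and 114 FPKM in homozygous testes. The order of the testes was nearly that of Odf1, with wild-type 1 and homozygous 3 highest and heterozygous 3 lowest. The span was 22.5-fold for Akap4 and 10.5-fold for Akap3.

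The genes for docking-domain proteins did not follow a single course. Ropn1 (chr16:34649921-34678618, plus strand, 6 exons) was at 84.9, 13.5 and 4.79 FPKM in wild-type, 53.2, 29.6 and 4.04 FPKM in heterozygous and 14.3, 28.2 and 77.8 FPKM in homozygous testes, a span of 21.0-fold. Its relative Ropn1l (chr15:31441211-31453737, minus strand, 5 exons) was at 669, 563 and 498 FPKM in wild-type, 547, 638 and 501 FPKM in heterozygous and 536, 561 and 708 FPKM in homozygous testes, a span of 1.42-fold. Thus, Ropn1l was high in every testis, including those where Ropn1 was scarce. Spa17 (chr9:37603290-37613722, minus strand, 5 exons) ranged from 217 to 304.5 FPKM, the narrowest span at 1.40-fold. Fsip2 (chr2:82943634-83008937, plus strand, 23 exons), which encodes a very large sheath-interacting protein with 20985 coding bases, was at 25.03, 21.8 and 16.8 FPKM in wild-type, 27.1, 19.9 and 15.6 FPKM in heterozygous and 19.7, 19.3 and 24.5 FPKM in homozygous testes. Ropn1l overlaps Gm6361 on the same strand, where counting by strand would not separate shared reads. Spa17 overlaps Siae on the opposite strand, with the same reservation as for Odf2 and Odf3.

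**Figure D1:**
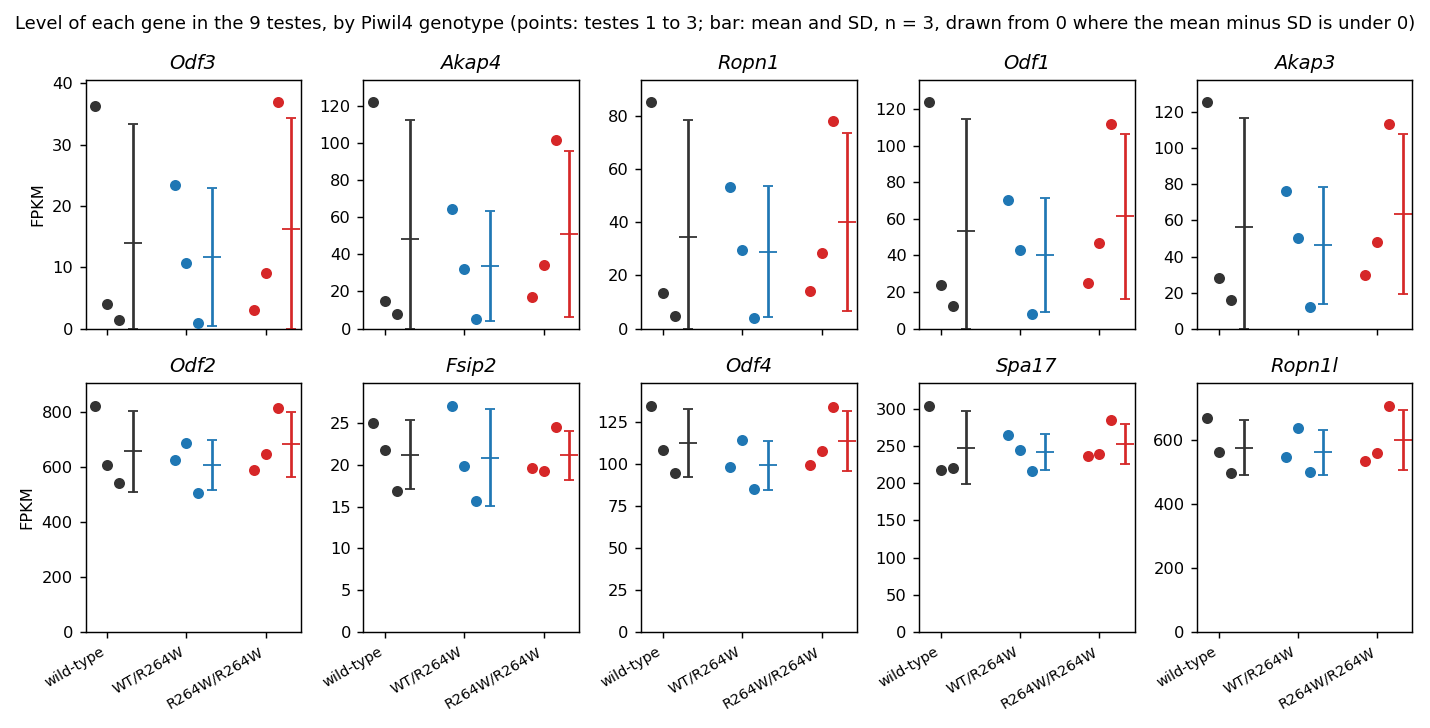
FPKM of each gene in the 9 testes, with 1 panel a gene on its own axis from 0, points for testes 1 to 3 of each genotype and a bar for the mean and SD (n = 3). The 5 genes of the upper row spread over 10.5-fold to 38.8-fold and those of the lower row over 1.40-fold to 1.73-fold, and in every panel the genotypes overlap.

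Across all 10 genes, the heterozygous testis with the lowest score had the lowest level of 9, and Ropn1l was lowest in wild-type testis 3. The highest level was in wild-type testis 1 for 7 genes, in homozygous testis 3 for 2 (Odf3 and Ropn1l) and in heterozygous testis 1 for 1 (Fsip2). In order of their median FPKM, Odf2 (628) and Ropn1l (561) came first, followed by Spa17 (239), Odf4 (108), Akap3 (47.9), Odf1 (43.1), Akap4 (31.9), Ropn1 (28.2), Fsip2 (19.9) and Odf3 (9.0). Only 2 neighbors in this order had ranges that did not overlap, Ropn1l with Spa17 and Spa17 with Odf4. Within each testis the order was firmer, since each gene from Odf2 to Akap4 exceeded the next in 9 of 9 testes. Ropn1 exceeded Fsip2 in 5 of 9 testes and Fsip2 exceeded Odf3 in 7 of 9, so the end of the list changed place from testis to testis.

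All 10 genes rose with the round spermatid score, but 5 of them far more than the others. The slope on the score was fitted with edgeR over the 9 testes with genotype as a covariate, as the log2 change per unit of score. It was positive at an adjusted p under 0.05 for 10 of 10 genes, where 18.8% of the 16052 genes tested were positive and 29.6% changed in either direction. Odf3 had the steepest slope at 1.84 (SE 0.069, adjusted p = 1.73e-10), a factor of 3.59 for each unit. Akap4 followed at 1.47 (SE 0.050, adjusted p = 6.60e-11), Ropn1 at 1.46 (SE 0.044, adjusted p = 3.22e-11), Odf1 at 1.26 (SE 0.036, adjusted p = 2.74e-11) and Akap3 at 1.12 (SE 0.030, adjusted p = 2.74e-11). These 5 genes come from both structures, and their slopes lay above those of at least 96.3% of all genes tested. A slope over 1 was found in 4.28% of all genes. The median over all genes tested was -0.02. The 15 score genes, which define the score, had slopes from 0.14 to 1.66 (median 1.22). Steep and shallow slopes thus occurred in that list too, and are not particular to the tail genes.

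The remaining genes had slopes several times smaller. Odf2 rose by 0.26 per unit (SE 0.031, adjusted p = 2.94e-05), Fsip2 by 0.26 (SE 0.039, adjusted p = 0.000254), Odf4 by 0.21 (SE 0.035, adjusted p = 0.000624), Spa17 by 0.19 (SE 0.031, adjusted p = 0.000416) and Ropn1l by 0.19 (SE 0.035, adjusted p = 0.00145). These were edgeR quasi-likelihood tests with Benjamini-Hochberg adjustment over all genes. The 95% interval of Akap3, the shallowest of the steep genes, ran from 1.06 to 1.19, and that of Odf2 ran from 0.19 to 0.32. Intervals of neighbors overlapped between Akap4 and Ropn1, between Odf1 and Akap3, and among the 5 shallow genes, so the order within those sets is not resolved. For the paralogs Ropn1 and Ropn1l, the intervals of 1.37 to 1.56 and 0.11 to 0.26 were far apart. In whole-testis RNA, more cells of a type and more RNA per cell cannot be told apart.

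**Figure D2:**
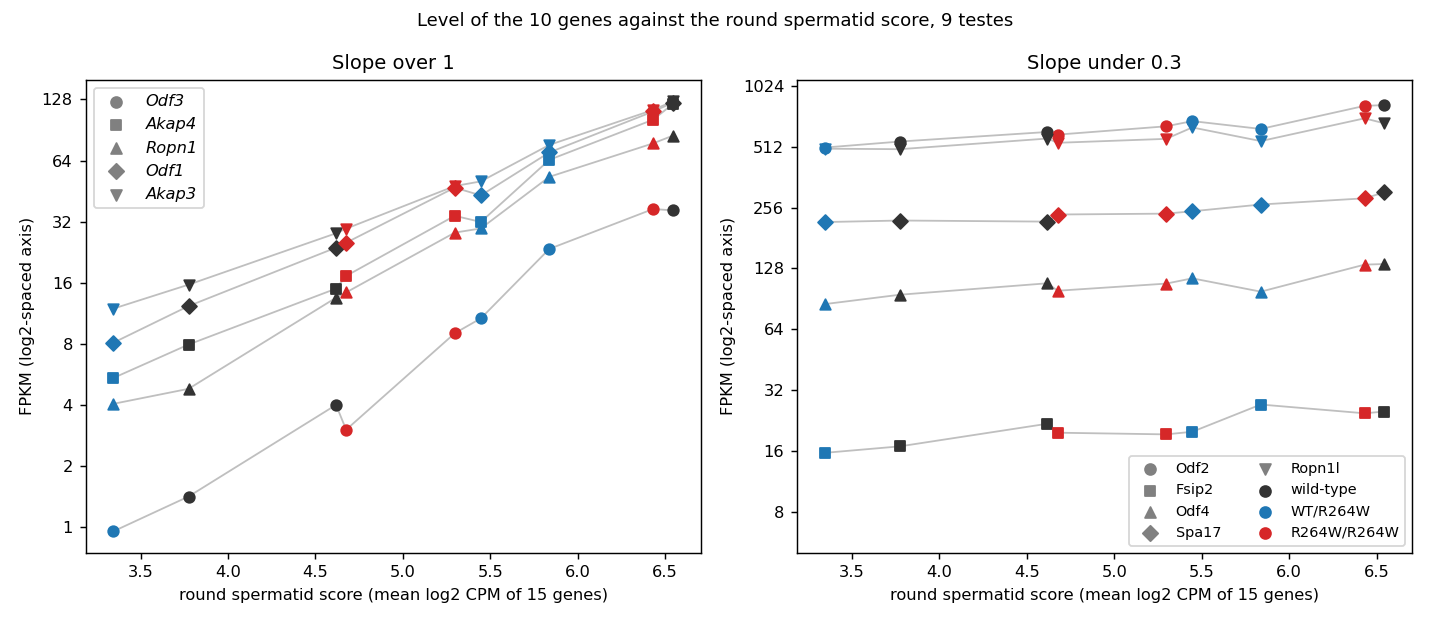
FPKM of the 10 genes on a log2-spaced axis against the round spermatid score of the 9 testes, with the 5 genes of slope over 1 on the left and those of slope under 0.3 on the right, symbols for genes and colors for genotypes. On the left Odf3 climbs from 0.950 to 36.9 FPKM, on the right Odf2 stays between 508 and 824 FPKM, and the colors mingle along the lines.

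Leaving out the 2 testes whose score was farthest from the median, heterozygous 3 and wild-type 3, was added after the values were seen. The steep slopes were then between 1.19 (Akap3) and 1.91 (Odf3) and still passed the test, as did Odf2, Spa17 and Odf4 (slope 0.22, adjusted p = 0.0418 by edgeR). Fsip2 (slope 0.21, adjusted p = 0.0763) and Ropn1l (slope 0.21, adjusted p = 0.0509) no longer did. Other germ cell lists moved along the same axis. The mean log2 CPM of 10 elongating spermatid genes ran from -1.79 to 5.19 over the testes and that of 9 pachytene spermatocyte genes from 8.87 to 9.30, while 8 early meiotic genes ran from 6.63 down to 5.99. Somatic cell lists did not share a direction. Of 7 Leydig cell genes, 2 had a positive slope past the test. The summed levels of that list were 117 to 310.3 FPKM in wild-type, 123 to 230.5 FPKM in heterozygous and 233 to 313 FPKM in homozygous testes. Of 8 Sertoli cell genes, 1 was positive and 3 were negative. Among 4 peritubular myoid genes 1 was negative, among 4 macrophage genes 1 was positive, and among 3 endothelial genes none (0) passed. Over all genes tested, 29.6% passed in either direction. The part of these lists in the slopes of the 10 genes was not tested.

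Related tail genes showed the same mixture of steep and shallow courses. Of 11 other genes for fibrous sheath proteins and the enzymes held there, 10 had a positive slope past the test, with a median of 1.13. The steepest was Txndc2 at 2.39 (SE 0.15), which encodes a sperm thioredoxin, and the shallowest was Rhpn1, which encodes a ropporin-binding rhophilin and did not pass (slope 0.10, adjusted p = 0.123 by edgeR). Of 9 other outer dense fiber genes, 7 could be tested and 6 were positive, with a median of 1.084. Oaz3, an antizyme gene of spermatids, was steepest at 1.55 (SE 0.051), and Odf2l, a relative of Odf2, was at 0.02 (adjusted p = 0.689 by edgeR). Odf3b and Odf3l2, relatives of Odf3, had too few counts to test, with at most 0.580 and 0.170 FPKM.

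All 5 genes tested for the mitochondrial sheath and annulus, the structures that adjoin the fibers and the sheath, were positive with a median slope of 1.42. They ran from Slc26a8, an anion transporter gene of the annulus, at 0.16 (adjusted p = 0.00257 by edgeR) to Spata19, a gene of the sperm mitochondria, at 1.47 (SE 0.062). Of the 4 subunits of protein kinase A, 1 was positive, where 18.8% of all genes tested were. This was Prkaca, the catalytic subunit, with a slope of 0.12 (SE 0.027, adjusted p = 0.00656 by edgeR). The regulatory subunits did not pass, with Prkar2b the lowest at -0.13 (SE 0.0998, adjusted p = 0.356 by edgeR). The 10 elongating spermatid genes were all positive with a median of 3.23, above the slope of any tail gene named here, while 6 of 9 pachytene genes were positive with a median of 0.12. Of 8 early meiotic genes, 5 were negative, with a median of -0.17.

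**Figure D3:**
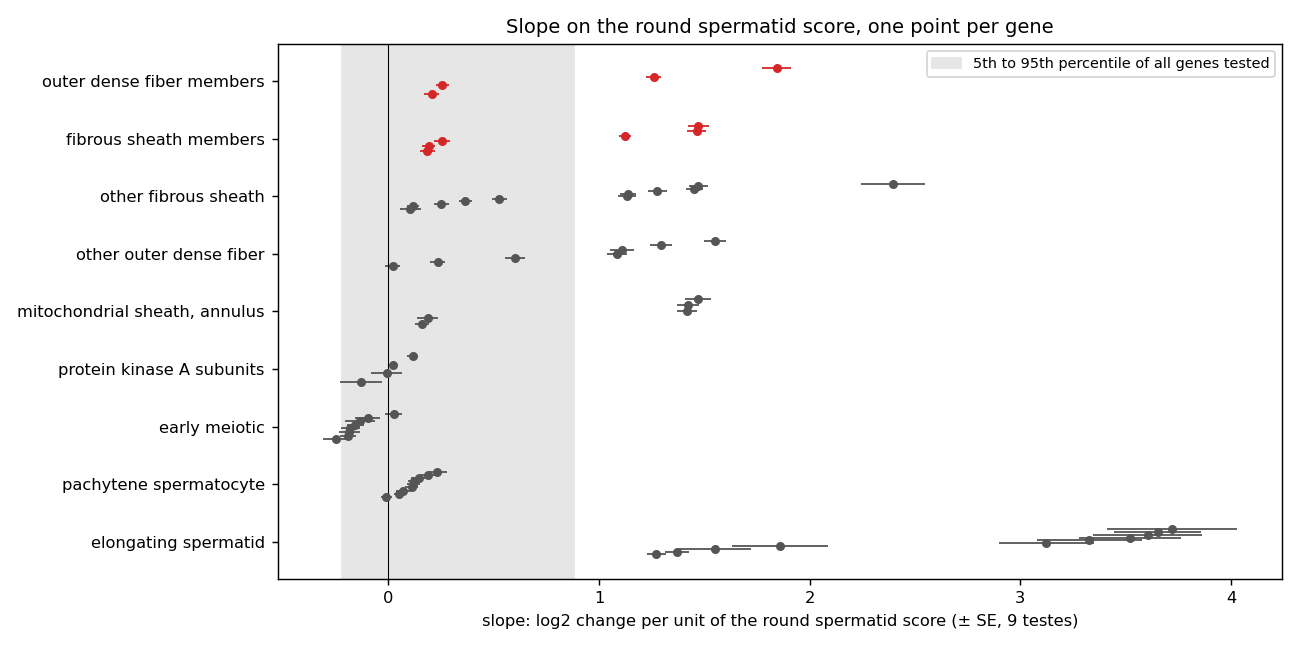
Slope on the round spermatid score with its SE over 9 testes, with 1 point a gene, the 10 genes in red and the other lists in gray, and a shaded band from the 5th to the 95th percentile of all genes tested (-0.22 to 0.88). Both structures hold genes inside and above the band, and the 10 genes leave a gap between 0.26 and 1.12.

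The study asked whether the Piwil4 substitution alters the first wave of spermatogenesis, and for these tail genes no difference between genotypes passed the test. Between homozygous and wild-type testes, 0 of 10 genes were called by edgeR (adjusted p under 0.05, at least 2-fold), against 0% of 15543 genes tested. At an unadjusted p under 0.05 there were again 0 of 10, against 1.26% of all genes, and none (0) was called by DESeq2 or limma. In 0 of 10 genes were the groups apart, against 5.58% of all genes. Mean levels were 53.2 ± 61.2 FPKM in wild-type and 61.3 ± 45.0 FPKM in homozygous testes for Odf1, and 48.2 ± 63.8 against 51.1 ± 44.7 FPKM for Akap4 (SD, n = 3 each). The log2 fold change was 0.16 (SE 0.96) for Odf1 and 0.04 (SE 1.14) for Akap4, both with an adjusted p of 0.9998 by edgeR. Within the same error, limma on log2(FPKM + 0.1) gave 0.62 and 0.68. For Odf2, means of 658 ± 147 and 684 ± 119 FPKM (SD, n = 3 each) gave 0.04 (SE 0.25). The exact two-sided permutation test of single genes gave p between 0.7 and 0.9, where 3 against 3 allows no p under 0.1.

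How much could have been missed differed between the steep and the shallow genes. For Odf1, Odf3, Akap3, Akap4 and Ropn1 a change of 2-fold in either direction lay inside the 95% interval, which for Odf3 ran from -3.04 to 3.42 on the log2 scale. For the other 5 genes the whole interval stayed within 2-fold, as for Spa17 from -0.45 to 0.49. This division held in all 3 comparisons of genotypes. Each comparison shares libraries with the others, so their values are given side by side.

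Between homozygous and heterozygous testes, 9 of 10 genes were higher in the homozygous testes, none past the test, and without homozygous testis 3 this was 2 of 10. Here 0 of 10 were called, against 0% of 15463 genes, and at an unadjusted p under 0.05 there were 0 of 10, against 2.22% of all genes. Odf1 and Akap4 both had a log2 fold change of 0.64 (SE 0.82 and 0.94) and Odf3 had 0.53 (SE 1.18), all with an adjusted p of 0.948 by edgeR. The groups overlapped in every gene, against 7.06% of all genes whose groups did not. Between heterozygous and wild-type testes the edgeR estimates of all 10 genes were lower in the heterozygous testes, again none past the test. This direction rested on single testes, except for Odf4, which stayed lower whichever testis was left out. Without wild-type testis 1, 9 of 10 were higher (Akap4 at 1.59, Odf3 at 2.14), and without heterozygous testis 3, 7 of 10 were. The mean log2 CPM was higher in heterozygous testes for Odf3 (2.84 against 2.80) and Ropn1 (4.02 against 3.98). Called were 0 of 10, against 0% of 15413 genes, with 0 of 10 at an unadjusted p under 0.05 against 1.11% of all genes, and 0 of 10 without overlap against 5.36%. Akap4 was at -0.61 (SE 1.20), Odf1 at -0.49 (SE 1.04) and Fsip2 at -0.04 (SE 0.25), with an adjusted p of 0.9998 by edgeR. Exact permutation p-values were between 0.4 and 0.9 in the former comparison and between 0.5 and 1 in the latter. The mean score of the genotypes had the order of most of these differences, at 5.47 ± 0.890 in homozygous, 4.98 ± 1.42 in wild-type and 4.88 ± 1.34 in heterozygous testes (SD, n = 3 each). These means differed by less than their SDs, and the part of the score in the differences was not tested.

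With the round spermatid score as a covariate, the model compares genotypes at equal score, which is a different quantity. The score follows the steep genes closely over the testes, so a difference between genotypes that runs with round spermatid RNA is taken out, and the intervals below do not bound the differences given above. For homozygous against wild-type testes, Odf1 had a log2 fold change of 0.0049 (SE 0.074) and a 95% interval from -0.16 to 0.17, in place of -2.15 to 2.48. Akap4 was at -0.05 (SE 0.080) and Akap3 at -0.05 (SE 0.060). Every interval of every gene in the 3 comparisons then lay within 2-fold, the widest reaching from -0.69 (Odf3 against heterozygous) to 0.61 (Odf3 in heterozygous against wild-type). No gene (0 of 10) was called in any comparison, where 0 of all 15543, 15463 and 15413 genes tested were called. Fsip2 was lower in homozygous than in wild-type testes by an unadjusted p of 0.0187 (log2 fold change -0.18, SE 0.069), which did not hold after adjustment (adjusted p = 0.877 by edgeR). An unadjusted p under 0.05 was found for 1 of 10 genes here, against 5.48% of all genes in that model.

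**Figure D4:**
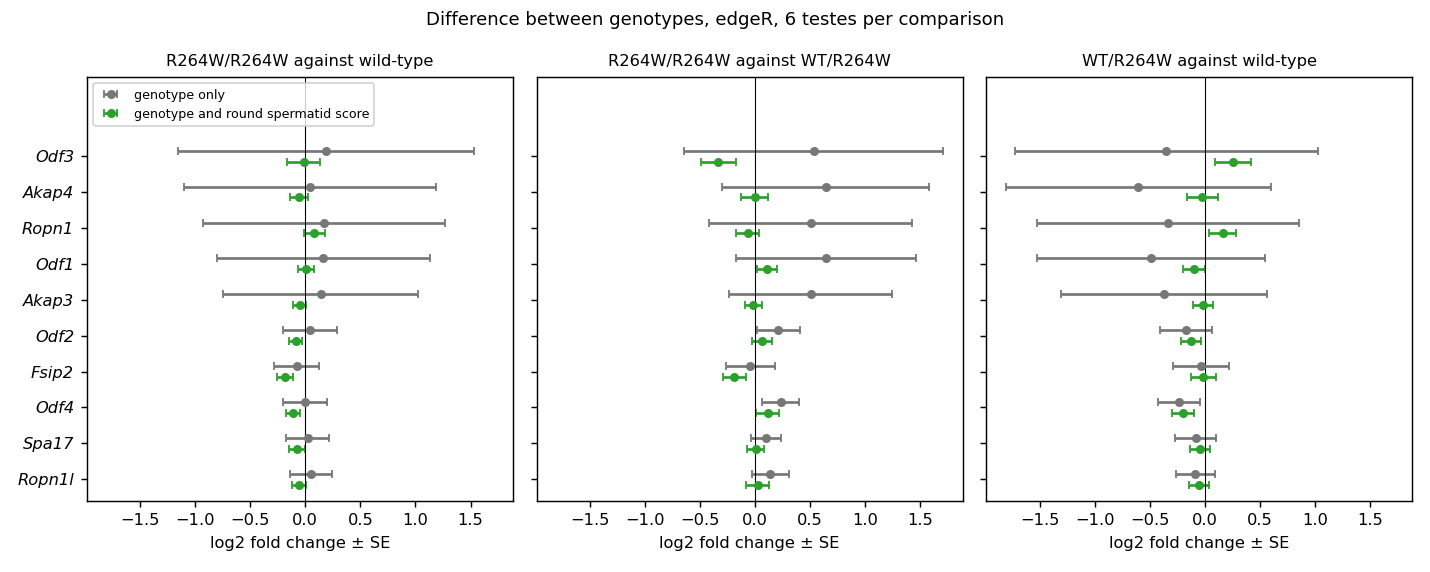
Log2 fold change between genotypes with its SE for the 10 genes in the 3 comparisons (edgeR, 6 testes each), from genotype alone in gray and with the round spermatid score as a covariate in green. The green values compare genotypes at equal score, with an SE of 0.15 for Odf3 in homozygous against wild-type testes beside 1.34, and no gene passes the test under either model.

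Leaving out the testis with the highest score of a genotype moved these comparisons widely. Without wild-type testis 1, the log2 fold change of homozygous against wild-type testes was 1.83 for Odf1 and 2.23 for Akap4. The unadjusted p was then under 0.05 for 4 of 10 genes (Odf1, Akap3, Akap4 and Ropn1), against 7.44% of all genes, with no adjusted p under 0.625 by edgeR. Without homozygous testis 3 the values were -0.66 for Odf1 and -1.01 for Akap4. For homozygous against heterozygous testes, Odf1 was at -0.18 without homozygous testis 3 and at 1.303 without heterozygous testis 1. Among the genes tested from the other tail gene lists, none (0) was called between genotypes.

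Genes whose profile over the 9 testes came closest to that of the 10 were found among 11611 genes with a mean of at least 5 CPM, by Pearson correlation of log2 CPM, as a description of testes that share one axis of variation. Closest to the mean of the 10 were Best1 (r = 0.9996), Stat4, Antxrl, Prr30 and Pmfbp1. Odf1 was matched most closely by Gapdhs (r = 0.9992), the sperm isozyme of glyceraldehyde-3-phosphate dehydrogenase, and then by Iqcn, Adam1a, Klhl10 and Ankrd61. Akap4 was matched by Trim36 (r = 0.9988), Spz1, 1700014D04Rik, Gpd2 and Gapdhs. The shallow profile of Odf2 was matched by Fam76a (r = 0.9959), Ttll13, Fbxw10, Dnaaf3 and Drc7, whose slopes on the score lay between 0.21 and 0.32. With so many genes moving together, close neighbors in these lists are not separated from those that follow.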

How the data were processed

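RNA of 9 whole testes (3 a genotype, age 3 weeks) was extracted with TRIzol, and libraries were made with a VAHTS mRNA kit and sequenced as paired-end reads on a NovaSeq. The authors filtered reads with fastp (version 0.18.0) and assembled them on a reference with StringTie (version 1.3.1). The submitters' processing notes name mm39. The aligner, annotation and counting tool are not given in the sources used here. The deposited table holds an FPKM value and an estimated count per gene and testis, and 89.2% of the estimated counts were whole. Estimated counts were rounded. Depth was 17.96 to 24.28 M counts a testis.

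In R 4.3.3, edgeR 4.0.16 (filterByExpr, TMM, quasi-likelihood test, two-sided, Benjamini-Hochberg) was run on each pair of genotypes and, for the slope on the round spermatid score (prior count 1), on all 9 libraries with genotype as a covariate. Genotype calls needed an adjusted p under 0.05 and at least 2-fold, slope calls an adjusted p under 0.05. The fits were checked on simulated counts with the same dispersion in every gene, which does not measure their power in these testes. Alternatives were DESeq2 1.42.0, its size factors, limma 3.58.1 on log2(FPKM + 0.1) and log2(FPKM + 1) for genes with a mean of at least 0.5 FPKM, no filter, 1 fit of 9 libraries, the score as a covariate, the replicate number as a block, other scores, no genotype term and each library left out. Gene models are GENCODE on GRCm38, matched by gene ID, and differ in build from the files.

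The members, gene lists and named genes were chosen with earlier results of these data known. Named genes are the 10 members, the steepest and shallowest of each tail gene list, and the 5 closest profiles. Odf3b, Odf3l2 and the epididymal markers were named after their values were seen. Of the marker lists, Gpx4 could not be matched by symbol. Promoter strings were chosen after the windows were read.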

Additional observations from a re-analysis of the deposited data

How the results depend on the processing

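No gene of the 10 was called between genotypes under any alternative, so the changes of sign below concern differences within their error. With the score as a covariate, log2 fold changes turned to -0.087 (Odf2), -0.013 (Odf3), -0.051 (Akap3), -0.055 (Akap4), -0.056 (Ropn1l) and -0.075 (Spa17) for homozygous against wild-type testes, to -0.33 (Odf3), -0.015 (Akap3), -0.0054 (Akap4) and -0.067 (Ropn1) for homozygous against heterozygous testes and to 0.26 (Odf3) and 0.16 (Ropn1) for heterozygous against wild-type testes. Odf4 in homozygous against wild-type testes, at -0.00030, turned to 0.0072 with DESeq2 or its size factors, 0.00057 without the filter, 0.00033 with all 9 libraries in 1 fit and 0.016 with limma on either pseudocount. With limma on log2(FPKM + 0.1) and log2(FPKM + 1), Fsip2 turned to 0.0066 and 0.0059 for homozygous against wild-type testes and to 0.048 and 0.045 for homozygous against heterozygous testes, and for heterozygous against wild-type testes Odf3 turned to 0.081 and 0.10 and Ropn1 to 0.071 and 0.071. For homozygous against wild-type testes, limma on either pseudocount also moved Akap4 (0.68 and 0.64, from 0.040) and Ropn1 (0.83 and 0.76, from 0.17) by over 1.5-fold. The cause was not tested. DESeq2 called 2 genes, neither of them among the 10, for homozygous against heterozygous testes where edgeR called 0. 

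Leaving out 1 library at a time gave the following ranges of log2 fold change. For homozygous against wild-type testes they were -0.66 to 1.83 (Odf1), -0.15 to 0.30 (Odf2), -1.31 to 2.67 (Odf3), -0.16 to 0.20 (Odf4), -0.64 to 1.61 (Akap3), -1.01 to 2.23 (Akap4), -0.24 to 0.10 (Fsip2), -0.77 to 2.16 (Ropn1), -0.12 to 0.23 (Ropn1l) and -0.11 to 0.25 (Spa17). For homozygous against heterozygous testes they were -0.18 to 1.303 (Odf1), -0.97 to 1.54 (Odf3), -0.27 to 1.07 (Akap3), -0.41 to 1.4997 (Akap4), -0.21 to 0.21 (Fsip2), -0.44 to 1.26 (Ropn1), -0.037 to 0.25 (Ropn1l) and -0.029 to 0.18 (Spa17). Odf2 (0.017 to 0.33) and Odf4 (0.072 to 0.36) kept their sign in that comparison. For heterozygous against wild-type testes they were -1.15 to 1.18 (Odf1), -0.33 to 0.091 (Odf2), -1.36 to 2.14 (Odf3), -0.94 to 1.10 (Akap3), -1.47 to 1.59 (Akap4), -0.29 to 0.15 (Fsip2), -1.09 to 1.65 (Ropn1), -0.21 to 0.0895 (Ropn1l) and -0.19 to 0.15 (Spa17). Here Odf4 kept its sign (-0.36 to -0.032). The slopes of the 10 genes passed the test without any 1 library, and with each of the other scores, tests and filters. The number of genes with a slope past the test, 4755, ran from 2675 (without wild-type replicate 1) to 6390 (without heterozygous replicate 1), with 2810 without wild-type replicate 3 and 3147 without homozygous replicate 3, and it was 1863 without the 2 testes farthest from the median score. Positive and negative slopes numbered 3025 and 1730 by edgeR and 2254 and 2934 by limma on log2(FPKM + 0.1). Depth limits Odf3 most, at 20 counts in its lowest testis. 

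The deviations of same-numbered testes from their genotype means correlated between -0.81 and 0.86. Between heterozygous and wild-type testes, numbers 1 and 3 matched their own number best (0.79 and 0.86) and number 2 did not. No homozygous testis matched its own number best. Since the testes share one axis of variation, this cannot tell whether the numbers mark litters or batches. With the number as a block, 0 genes were called in each genotype comparison and 4100 had a slope past the test, while for homozygous against wild-type testes Akap4 was at 0.88, Odf3 at 0.97, Ropn1 at 0.90 and Odf1 at 0.72, all without a call, and Odf4 turned to 0.0086 for homozygous against wild-type testes, and Odf3 to 0.069 and Ropn1 to 0.023 for heterozygous against wild-type testes.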
